A study of Mus musculus with 13 samples.

Results

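The genes of the insulin-like growth factor (IGF) binding proteins, Igfbp1 to Igfbp7, were followed across mouse livers with and without Sel1l in hepatocytes. The 7 genes were taken by name from the array annotation, out of 18820 genes with a feature of their own, and each had exactly 1 array feature. Across 13 livers, none of the 7 passed the test in either genotype comparison or in either comparison of ages within a genotype. Few features passed at all in these comparisons, from 0% to 1.89% of all features. Their behaviour still differed widely: Igfbp1 varied 4.23-fold between livers and Igfbp4 varied 1.25-fold. Within each genotype every liver at 9 weeks of age had less Igfbp3 than every liver at 3 weeks. Such a lack of overlap between ages, in either direction, held for 9.35% of all features in LiSel1lKO livers and 17.8% in wildtype livers.

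IGF-binding proteins are secreted proteins that carry IGFs in blood and tissue fluid and set how much of the hormone reaches its receptor. The liver makes most circulating Igf1, under control of growth hormone. Hepatocytes also secrete Igfbp1, whose transcription insulin represses and fasting induces, and Igfbp2 and Igfbp4. In rodent liver Igfbp3 is known as a product of the cells that line and surround the sinusoids rather than of hepatocytes, and in blood it forms a ternary complex with an IGF and the acid-labile subunit, Igfals. Igfbp5 and Igfbp6 are typical products of fibroblasts, and Igfbp7 of endothelial and stellate cells.

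The groups were LiSel1lKO livers at 9 weeks (n = 3), wildtype livers at 9 weeks (n = 3), LiSel1lKO livers at 3 weeks (n = 4) and wildtype livers at 3 weeks (n = 3). All mice were C57BL/6J and were fasted in the morning before sacrifice. LiSel1lKO mice carried Sel1l with exon 6 floxed, and Cre recombinase under the albumin promoter. The deletion is therefore aimed at hepatocytes, while endothelial, stellate and Kupffer cells of the same piece of liver should keep the gene. Sel1L is the partner of the ubiquitin ligase Hrd1 in the disposal of misfolded proteins from the endoplasmic reticulum. The sources used here do not give the sex of the mice, nor whether wildtype mice had floxed alleles or Cre.

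Values are log2 expression levels, where a step of 1 is a doubling. Levels of different genes cannot be set against each other, because each array feature has its own brightness. The array medians lay between 3.72 and 3.81, and no detection calls were given, so a level near that range may be background. Arrays correlated between 0.983 and 0.988 across features within groups and between 0.976 and 0.987 across groups. Sel1l, the deleted gene, was at 7.90, 7.54 and 7.72 in LiSel1lKO livers at 9 weeks, against 8.78, 8.70 and 8.72 in wildtype livers. At 3 weeks it was at 8.42, 7.90, 7.20 and 7.10 in LiSel1lKO livers, against 8.94, 8.77 and 8.85 in wildtype livers. The groups did not overlap at either age, although neither difference passed the test (adjusted p = 0.108 and 0.391, limma). All 10 hepatocyte markers stood high, with means from 10.95 for Hnf4a to 13.30 for Alb. Their averaged level was 12.44 to 12.56 in LiSel1lKO livers and 12.54 to 12.63 in wildtype livers at 9 weeks, and 12.51 to 12.60 and 12.48 to 12.58 at 3 weeks. In bulk liver, fewer cells of a type and less RNA per cell cannot be told apart.

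Igfbp1, the most variable member, is shown with the 250 bases before its annotated start, and Igfbp7, one of the steadiest, is shown beside it. Both come from the RefSeq promoter table (GRCm38.p6). Igfbp1 lies at chr11:7197537-7197786 on the plus strand and Igfbp7 at chr5:77408046-77408295 on the minus strand. Capitals mark matches to the letters searched.
Igfbp1: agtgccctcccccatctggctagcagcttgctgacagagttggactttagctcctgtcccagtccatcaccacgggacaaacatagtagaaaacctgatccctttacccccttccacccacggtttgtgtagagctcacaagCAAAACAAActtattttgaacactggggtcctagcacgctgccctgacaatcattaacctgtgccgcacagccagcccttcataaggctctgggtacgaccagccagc
Igfbp7: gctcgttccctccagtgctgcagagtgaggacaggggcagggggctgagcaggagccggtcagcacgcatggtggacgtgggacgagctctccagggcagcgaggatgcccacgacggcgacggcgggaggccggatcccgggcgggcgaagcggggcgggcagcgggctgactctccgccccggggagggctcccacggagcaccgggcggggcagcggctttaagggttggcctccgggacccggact
In the Igfbp1 window, CAAAACA, the core of the insulin response sequence known from human IGFBP1, began 108 bases before the start. It overlaps AAACAAA, a core bound by FOXO and FOXA factors, which began 106 bases before the start. Both strands were searched in 32851 windows of the same length, of which 5.56% held CAAAACA and 8.74% held AAACAAA. Among the 8 windows of the family, Igfbp1 alone held CAAAACA, while AAACAAA was also in 1 of the 2 windows of Igfbp2. None of the 8 windows held the amino acid response letters TGATGNAA (3.45% of all windows), the unfolded protein response letters TGACGTGG (0.563%) or the 19-letter endoplasmic reticulum stress element (0.113%). These matches describe letters only and say nothing of binding.

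In the RefSeq gene order, Igfbp1 and Igfbp3 are neighbours on chromosome 11 and Igfbp2 and Igfbp5 are neighbours on chromosome 1, each pair on opposite strands with 0 genes between. The neighbours did not vary together over the livers: r was -0.03 for Igfbp1 with Igfbp3 and -0.25 for Igfbp2 with Igfbp5 (n = 13).

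**Figure D1:**
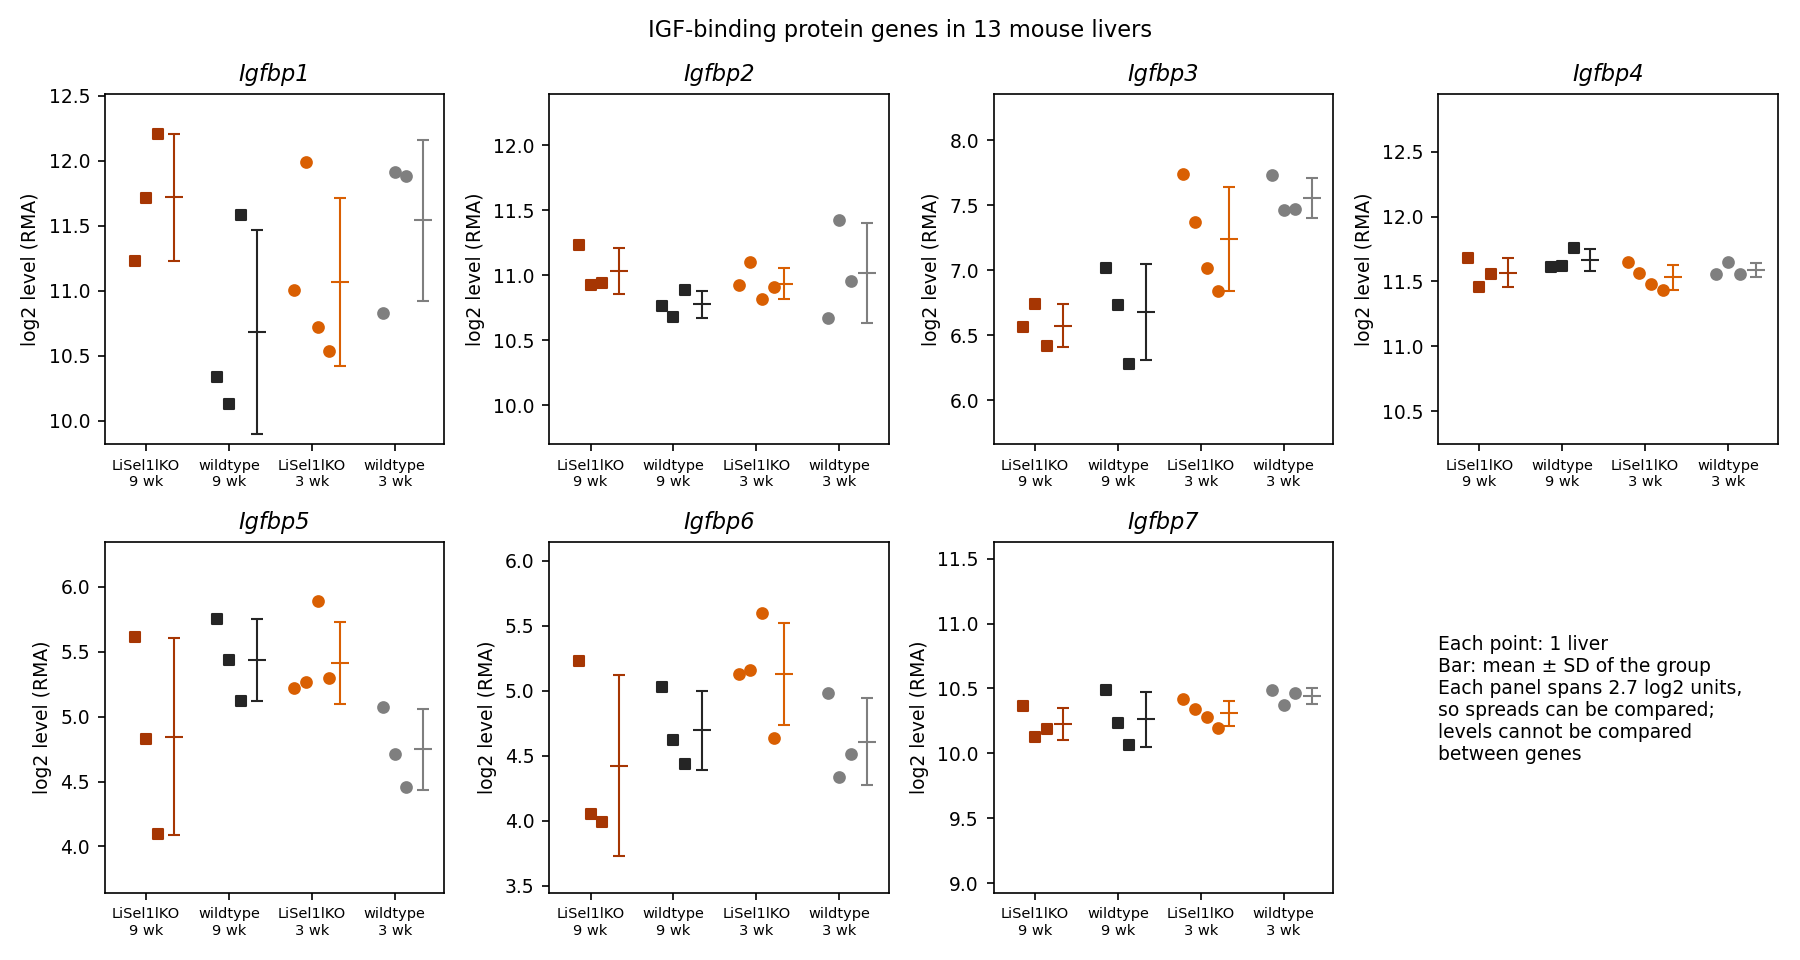
Log2 expression level (RMA, vertical axis) of Igfbp1 to Igfbp7 in each of 13 livers, by genotype and age, with each point 1 liver and each bar the group mean with its SD. All panels span the same number of log2 units, so that the wide scatter of Igfbp1 (10.13 to 12.21) can be seen against the narrow one of Igfbp4 (11.43 to 11.76), and in the Igfbp3 panel the 9-week livers lie below the 3-week livers of the same genotype.

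Igfbp1 encodes the rapidly regulated hepatocyte binding protein that rises in fasting. It was at 11.23, 11.71 and 12.21 in LiSel1lKO livers at 9 weeks, against 10.33, 10.13 and 11.58 in wildtype livers. At 3 weeks it was at 11.004, 11.99, 10.72 and 10.54 in LiSel1lKO livers, against 10.83, 11.91 and 11.89 in wildtype livers. The genotypes overlapped at both ages, and the lowest LiSel1lKO liver at 9 weeks stood above the lowest liver of every other group. At 9 weeks the mean difference, LiSel1lKO minus wildtype, was 1.04 ± 0.475 (SE), which is 2.05-fold with a 95% interval of -0.00 to 2.08 on the log2 scale (adjusted p = 0.362, limma with Benjamini-Hochberg adjustment over all features). At 3 weeks it was -0.48 (interval -1.45 to 0.50, adjusted p = 0.840). The difference between these effects was 1.52 (interval 0.09 to 2.94), with an unadjusted p of 0.0393 and an adjusted p of 0.484 from limma. Arrays carried a plate column in their descriptions, 5 or 7, and within these columns the 9-week difference was 1.59 and 0.76, while the 3-week difference was -0.09 and -1.05, with a single liver on one side in 3 of these 4 values.

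The spread of Igfbp1 among livers of the same group was the widest of the family, with an SD of 0.644 log2 units. This was wider than that of 95.1% of all features, whose median was 0.177, and of 99.4% of features with 1 gene symbol. Across 10183 genes compared, Pdk4 had the level most like that of Igfbp1 over the 13 livers, with Pearson's r = 0.962 and Spearman's rho = 0.956. Pdk4 encodes the kinase that switches off pyruvate dehydrogenase in fasting. With the group means removed r was 0.954, so the likeness was between livers of the same group as much as between groups. Pdk4 was at 6.87, 9.35 and 10.36 in LiSel1lKO livers and 6.31, 5.48 and 8.32 in wildtype livers at 9 weeks. In the younger livers it was at 7.74, 9.49, 5.93 and 5.68 in LiSel1lKO and 6.76, 9.52 and 9.68 in wildtype. The liver with the highest Igfbp1 of each group also had its highest Pdk4, with 1 exception, the wildtype livers at 3 weeks, where the top pair were nearly level.

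Cnnm4, which encodes a magnesium transporter, and Ehhadh, an enzyme of peroxisomal fatty acid oxidation, came next. Cnnm4 had r = 0.910 and rho = 0.857 with Igfbp1 (r = 0.898 within groups), and Ehhadh had r = 0.894 and rho = 0.907 (r = 0.837 within groups). These likenesses were picked as the highest among 10183 genes, and all points come from the same 13 arrays. At 9 weeks the differences, LiSel1lKO minus wildtype, of Pdk4, Cnnm4 and Ehhadh were 2.16, 0.74 and 0.96, and none passed the test (adjusted p = 0.485, 0.277 and 0.266, limma). Fgf21, the fasting hormone named in the title of the study, was at 8.75, 8.92 and 9.02 in LiSel1lKO livers and 5.32, 5.90 and 6.59 in wildtype livers at 9 weeks, with no overlap, unlike Igfbp1. At 3 weeks Fgf21 was at 7.96, 9.30, 6.14 and 5.96 in LiSel1lKO livers, against 7.21, 7.19 and 7.09 in wildtype livers, with overlap. Within the LiSel1lKO livers of each age, Fgf21 and Igfbp1 ranked the livers in the same order, whereas in wildtype livers the orders differed.

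**Figure D2:**
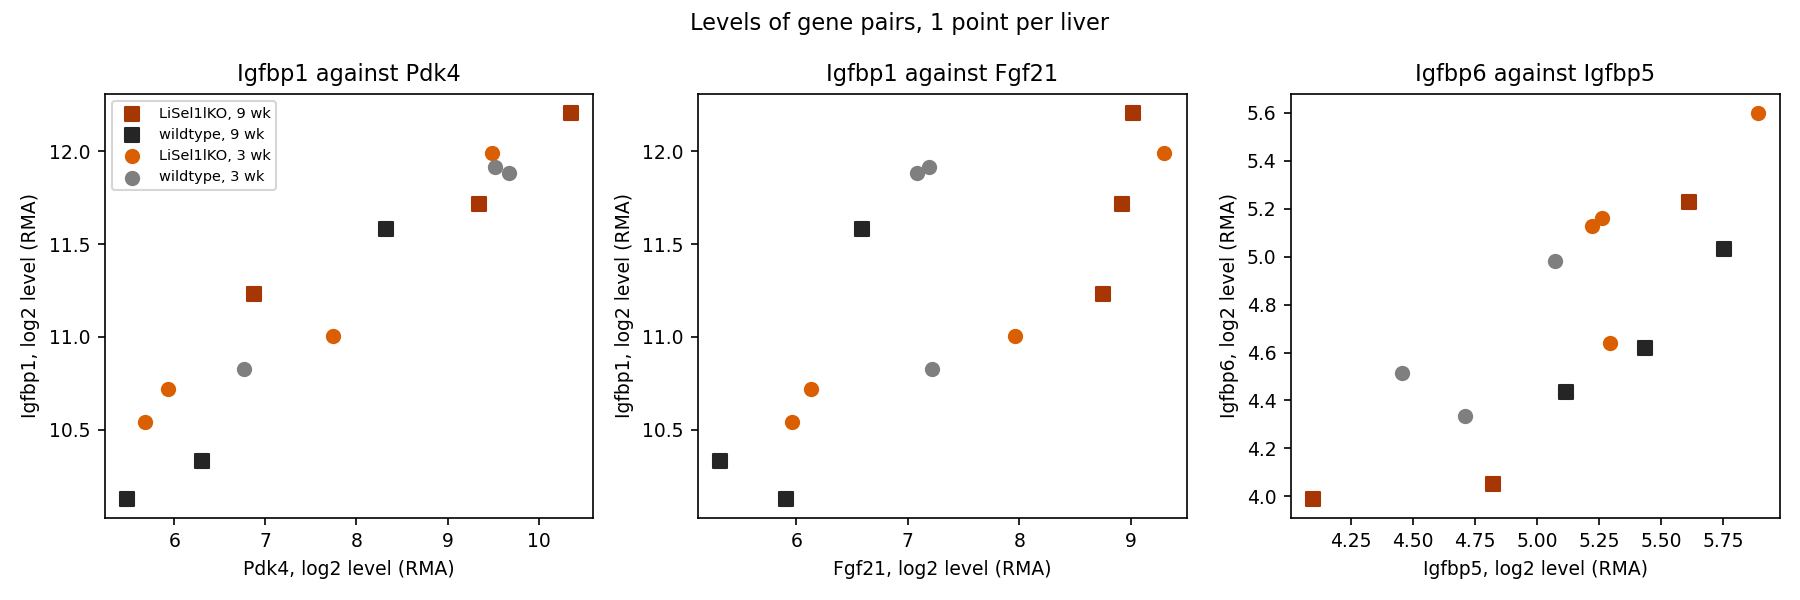
Log2 levels (RMA) of Igfbp1 against Pdk4, Igfbp1 against Fgf21, and Igfbp6 against Igfbp5, with 1 point per liver, squares for 9 weeks and circles for 3 weeks. Igfbp1 follows Pdk4 along a line in all 4 groups (r = 0.962, n = 13), and Igfbp6 follows Igfbp5 (r = 0.808). Fgf21 sets the 9-week LiSel1lKO livers (8.75 to 9.02) apart from the wildtype livers of that age (5.32 to 6.59). At 3 weeks the LiSel1lKO livers (5.96 to 9.30) spread around the wildtype livers (7.09 to 7.21) in Fgf21.

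Igfbp2 encodes the other hepatocyte binding protein that is raised when insulin is low. Levels at 9 weeks were 11.24, 10.92 and 10.94 in LiSel1lKO livers, against 10.76, 10.68 and 10.89 in wildtype livers. All LiSel1lKO livers were thus above all wildtype livers, by 0.26 on average (1.19-fold, interval -0.11 to 0.63), with an adjusted p of 0.558 (limma). Igfbp2 was the only 1 of the 7 members without overlap in that comparison, against 18.4% of all features. Among the 3-week livers the levels were 10.92, 11.10, 10.81 and 10.91 in LiSel1lKO and 10.67, 11.43 and 10.96 in wildtype, and the LiSel1lKO values lay inside the wildtype range. Plate columns 5 and 7 gave differences of 0.41 and 0.10 at 9 weeks, and of opposite sign, 0.19 and -0.56, at 3 weeks. All of these but column 5 at 3 weeks had a single liver on one side.

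Igfbp4, whose product holds IGFs away from the receptor until the protease Pappa cuts it, was the steadiest member. It lay between 11.46 and 11.68 in LiSel1lKO livers and between 11.61 and 11.76 in wildtype livers at 9 weeks. The 3-week ranges were 11.43 to 11.65 in LiSel1lKO livers and 11.56 to 11.65 in wildtype livers. The genotype difference had 95% intervals of -0.29 to 0.09 at 9 weeks and -0.23 to 0.12 at 3 weeks, and neither difference passed the test (adjusted p = 0.695 and 0.907, limma). Its SD within groups, 0.0892, was smaller than that of all but 10.9% of features with 1 symbol.

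Igfbp3 encodes the main carrier of IGFs in blood. In LiSel1lKO livers it was at 6.56, 6.74 and 6.42 at 9 weeks, against 7.74, 7.37, 7.02 and 6.84 at 3 weeks. In wildtype livers it was at 7.02, 6.74 and 6.28 at 9 weeks, against 7.73, 7.47 and 7.47 at 3 weeks. The ages did not overlap in either genotype, as was so for 9.35% of all features in LiSel1lKO livers and 17.8% in wildtype livers. The difference, 9 minus 3 weeks, was -0.67 ± 0.218 (SE) in LiSel1lKO livers (0.630-fold, interval -1.14 to -0.19, adjusted p = 0.302) and -0.88 ± 0.233 in wildtype livers (0.543-fold, interval -1.39 to -0.37, adjusted p = 0.0931, limma), and neither passed the test. Plate columns 5 and 7 gave -0.61 and -0.63 in LiSel1lKO livers, and -0.87 and -0.82 in wildtype livers, 3 of these 4 values with a single liver on one side.

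A contrast added after these values had been seen averaged the age difference over both genotypes. In it Igfbp3 was lower at 9 weeks by 0.773 log2 units, with a fold of 0.585 (interval -1.12 to -0.42, adjusted p = 0.0311, limma). It was the 1 member of 7 that passed, against 2.16% of all features, and since the contrast was chosen with the values known it is a description rather than independent support. The call was lost in 8 of the 13 fits that left out 1 liver, among them those without any 1 of the wildtype livers at 3 weeks, and the adjusted p ranged over 0.0226 to 0.0888. Igfbp3 did not separate the genotypes: the difference was -0.10 (interval -0.61 to 0.41) at 9 weeks and -0.32 (interval -0.80 to 0.16) at 3 weeks.

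Markers of other liver cells were read beside Igfbp3. The averaged level of 12 sinusoidal endothelial markers was 8.06 to 8.13 in LiSel1lKO livers at 9 weeks against 8.07 to 8.32 at 3 weeks, and 8.07 to 8.15 in wildtype livers at 9 weeks against 8.34 to 8.39 at 3 weeks. In wildtype livers 3 of the 12 were called lower at 9 weeks, against 1.12% of all features, and 0 higher. In LiSel1lKO livers 0 of the 12 were called by limma, with 2 lower at an unadjusted p under 0.05, against 0.155% and 10.1% of all features. There 5 of the 12 differences were above 0, with a median of -0.02. The averaged level of 12 stellate and fibroblast markers was 6.72 to 6.94 at 9 weeks against 6.86 to 7.40 at 3 weeks in LiSel1lKO livers, and 6.62 to 7.19 against 7.23 to 7.39 in wildtype livers, where 1 of the 12 was called lower. In LiSel1lKO livers 0 of these 12 were called by limma, against 0.155% of all features, and 5 differences were above 0 with a median of -0.09. In wildtype livers 10 of 10 Kupffer cell and macrophage markers were also below 0 with age (median -0.30, 1 called lower), as were 6 of 7 erythroid markers (1 called lower). The list of portal fibroblast, mesothelial and smooth muscle markers went the other way there, with 8 of 12 above 0 and a median of 0.21. Of these 12, 1 was called higher, against 0.765% of all features. With group means removed, Igfbp3 correlated over 13 livers with the stellate list at r = 0.863, with the portal list at 0.786, with the endothelial list at 0.673, with the erythroid list at 0.217 and with the macrophage list at -0.168. No stellate or endothelial marker lay below the array medians. The part of these cells in the levels of Igfbp3 was not tested.

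**Figure D3:**
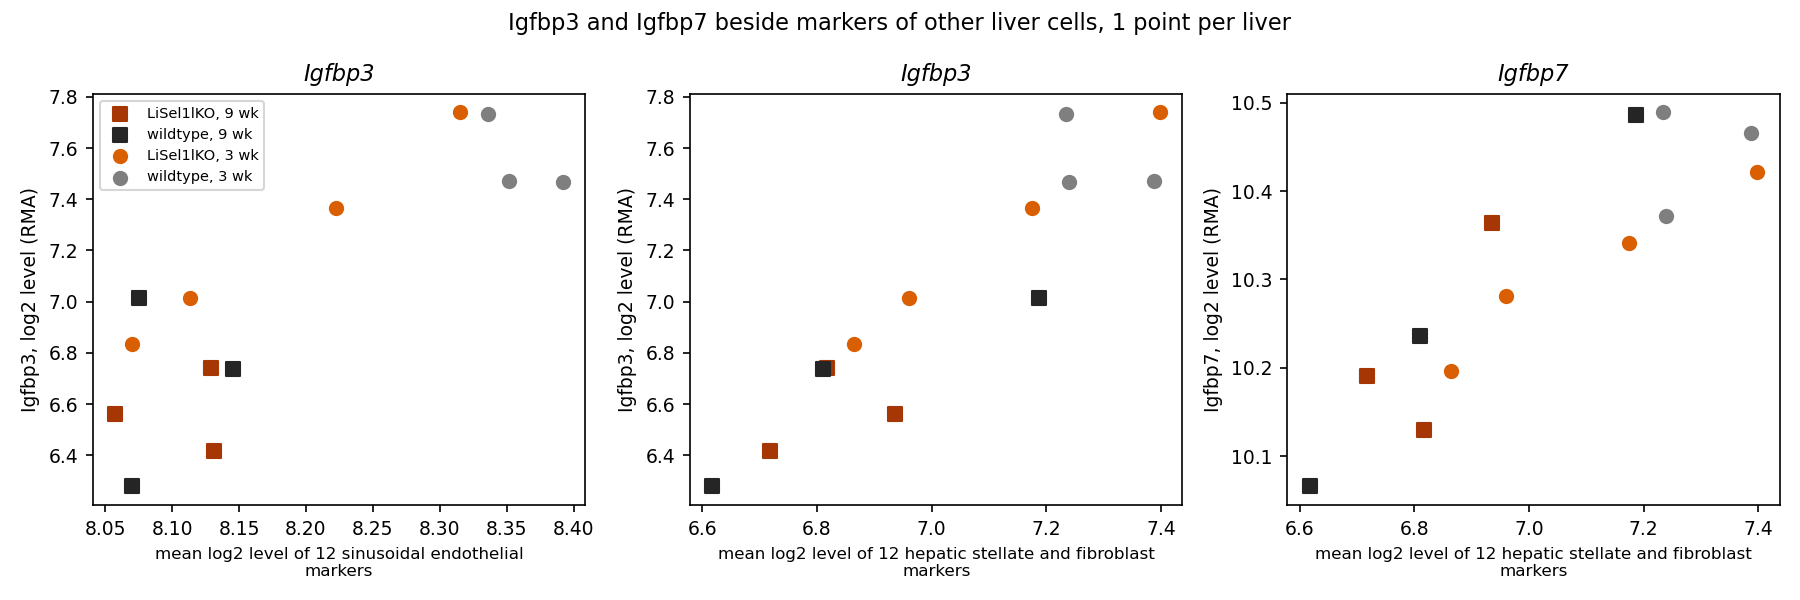
Log2 level (RMA, vertical axis) of Igfbp3 and Igfbp7 against the averaged log2 level of 12 sinusoidal endothelial or 12 stellate and fibroblast markers (horizontal axis), with 1 point per liver. Igfbp3 and Igfbp7 climb with the stellate list across the livers (r = 0.930 and 0.898, n = 13), and the 3-week wildtype livers sit at the upper end of the endothelial list (8.34 to 8.39).

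Igfbp7, a low-affinity binder deposited in the vessel wall and matrix, followed the stellate list as well, within a much narrower range than Igfbp3. It was at 10.36, 10.13 and 10.19 in LiSel1lKO livers, against 10.49, 10.24 and 10.07 in wildtype livers, at 9 weeks. The 3-week livers were at 10.42, 10.34, 10.28 and 10.20 in LiSel1lKO livers, against 10.49, 10.37 and 10.47 in wildtype livers. The genotypes overlapped at both ages, and the differences were -0.03 (interval -0.28 to 0.21) at 9 weeks and -0.13 (interval -0.36 to 0.10) at 3 weeks. Within groups, Igfbp7 correlated with the list of portal fibroblast, mesothelial and smooth muscle markers at r = 0.911 with the stellate list at r = 0.880 and with the endothelial list at r = 0.198. Igfbp3 and Igfbp7 correlated with each other at r = 0.730 within groups and 0.779 over all livers.

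Igfbp5, which binds both matrix and IGFs, and Igfbp6, which prefers Igf2, were dimmer features and formed the closest pair of the family. Of the 21 pairs of members, theirs had the highest correlation, r = 0.808 over the 13 livers and 0.854 within groups. Igfbp5 was at 5.61, 4.82 and 4.10 in LiSel1lKO livers, against 5.75, 5.44 and 5.12 in wildtype livers, at 9 weeks. At 3 weeks it was at 5.22, 5.26, 5.89 and 5.29 in LiSel1lKO livers, against 5.07, 4.71 and 4.46 in wildtype livers. All LiSel1lKO livers thus stood above all wildtype livers at 3 weeks, whereas at 9 weeks the groups overlapped with the LiSel1lKO mean lower.

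The Igfbp5 difference, LiSel1lKO minus wildtype, was 0.67 (interval -0.02 to 1.36, adjusted p = 0.685) at 3 weeks and -0.59 (interval -1.33 to 0.15, adjusted p = 0.481) at 9 weeks. The difference between these effects, -1.26 (interval -2.27 to -0.25), had an unadjusted p of 0.0188 and an adjusted p of 0.427 (limma). Both plate columns gave the same signs, 0.51 and 0.84 at 3 weeks and -0.58 and -0.61 at 9 weeks, 3 of these 4 values with a single liver on one side. Leaving out 1 liver moved the 9-week difference between -0.97, without LiSel1lKO replicate 1, and -0.22. In wildtype livers Igfbp5 at 9 weeks stood above its level at 3 weeks in every liver (difference 0.69, interval -0.05 to 1.42, adjusted p = 0.409). In LiSel1lKO livers the age difference was -0.57 (interval -1.26 to 0.12, adjusted p = 0.608).

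Igfbp6 was at 5.23, 4.05 and 3.99 in LiSel1lKO livers, against 5.03, 4.62 and 4.44 in wildtype livers, at 9 weeks. In 3-week animals it was at 5.13, 5.16, 5.60 and 4.64 in LiSel1lKO livers, against 4.98, 4.33 and 4.51 in wildtype livers. The genotypes overlapped at both ages, with 2 of the LiSel1lKO livers at 9 weeks lower than any other liver. Their levels, 4.05 and 3.99, lay close to the array medians of 3.72 to 3.81, as did Igfbp5 at 4.10 in 1 of these livers. Part of such levels may be background. The difference was -0.27 (interval -1.01 to 0.47) at 9 weeks and 0.52 (interval -0.17 to 1.21) at 3 weeks, and the age difference in LiSel1lKO livers was -0.71 (interval -1.40 to -0.02, unadjusted p = 0.0452, adjusted p = 0.480, limma). Leaving out 1 liver moved the 9-week difference between -0.67, without LiSel1lKO replicate 1, and -0.06. It moved the age difference between -1.11, also without that liver, and -0.49. Plate columns 5 and 7 gave -0.01 and -0.68 at 9 weeks, and 0.15 and 1.03 at 3 weeks. For the age difference in LiSel1lKO livers they gave -0.29 and -1.31. Column 5 held 2 livers on each side at 3 weeks and for age, and the other values had a single liver on one side.

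With every liver included, this pair ran against macrophage markers and with portal markers. With group means removed, Igfbp5 and Igfbp6 correlated with the averaged level of 10 Kupffer cell and macrophage markers at r = -0.754 and -0.857, and with the 12 portal fibroblast, mesothelial and smooth muscle markers at r = 0.585 and 0.640. With the stellate and fibroblast list r was 0.235 and 0.422. LiSel1lKO replicate 1 at 9 weeks had the lowest macrophage level of all livers and the highest Igfbp5 and Igfbp6 of its group. Without it the macrophage values of the pair were r = -0.411 and -0.693 (n = 12), a comparison chosen after the values were seen. The portal values were then 0.564 and 0.660. Other lists moved as well: r with the hepatocyte list went from -0.022 to -0.693 for Igfbp5 and from 0.138 to -0.476 for Igfbp6. With all livers, the macrophage list also ran against Igfbp7 and Igfbp4 within groups (r = -0.619 and -0.540). The pair ran against the lymphocyte list too (r = -0.527 and -0.536). In all, 70 correlations of members with marker lists were computed. The macrophage list stood at 7.56 to 7.86 in LiSel1lKO livers and 8.03 to 8.13 in wildtype livers at 3 weeks, with all 10 markers lower in LiSel1lKO. Of these 10, 0 were called by limma and 1 had an unadjusted p under 0.05, against 0% and 7.41% of all features. The genotypes did not overlap for 6 of the 10, against 7.41% of all features. At 9 weeks the macrophage list was at 6.87, 8.01 and 7.99 in LiSel1lKO livers, against 7.35, 7.80 and 7.64 in wildtype livers. The portal list stood at 3.51 to 3.94 in LiSel1lKO and 3.81 to 4.92 in wildtype livers at 9 weeks, with 11 of 12 markers lower. Of these 12, 0 were called by limma and 4 had an unadjusted p under 0.05, against 1.52% and 13.9% of all features. At 3 weeks it stood at 3.92 to 4.38 in LiSel1lKO and 3.88 to 4.20 in wildtype livers. Of the portal markers, 4 of 12 lay below the highest array median on average, whereas none of the macrophage markers did. Their part in the levels of Igfbp5 and Igfbp6 was not tested.

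Igfbp1 ran against Igfbp5 over the livers (r = -0.749, and -0.652 within groups) and with Igfbp2 (r = 0.615, and 0.485 within groups). Of the 21 pairs, 13 had a correlation above 0 within groups. These are descriptions over 13 arrays normalized together.

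The order of the group means was not the same for all 7 genes, although Igfbp2 shared the order of Igfbp1, and Igfbp7 that of Igfbp3. For Igfbp1 it ran from LiSel1lKO at 9 weeks (11.72 ± 0.488), through wildtype at 3 weeks (11.54 ± 0.620) and LiSel1lKO at 3 weeks (11.06 ± 0.647), down to wildtype at 9 weeks (10.68 ± 0.786, SD). For Igfbp3 wildtype at 3 weeks was highest (7.56 ± 0.153), followed by LiSel1lKO at 3 weeks (7.24 ± 0.400), wildtype at 9 weeks (6.68 ± 0.371) and LiSel1lKO at 9 weeks (6.57 ± 0.163). For Igfbp5 wildtype at 9 weeks (5.44 ± 0.318) and LiSel1lKO at 3 weeks (5.42 ± 0.316) led, above LiSel1lKO at 9 weeks (4.85 ± 0.756) and wildtype at 3 weeks (4.75 ± 0.308). Neighbours in these orders overlapped in their ranges in all 21 instances over the 7 genes.

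Counted together, 0 of the 7 members were called at 9 weeks between the genotypes by limma, against 1.52% of all features, and 0 of 7 had an unadjusted p under 0.05, against 13.9%. At 3 weeks 0 of 7 were called, against 0% of all features, and 0 of 7 had an unadjusted p under 0.05, against 7.41%. Groups did not overlap for 1 of 7 at 3 weeks (Igfbp5), against 7.41% of all features. For the difference of the genotype effects between the ages, 0 of 7 were called, against 0%, and 2 of 7 (Igfbp1 and Igfbp5, of opposite sign) had an unadjusted p under 0.05, against 9.73%. Between 9 and 3 weeks 0 of 7 were called in LiSel1lKO livers, against 0.155%, and 0 of 7 in wildtype livers, against 1.89%. At an unadjusted p under 0.05 there were 2 of 7 in LiSel1lKO livers (Igfbp3 and Igfbp6, both lower at 9 weeks), against 10.1%, and 1 of 7 in wildtype livers (Igfbp3), against 13.6%. The ages did not overlap for 1 of 7 in LiSel1lKO livers, against 9.35%, and for 2 of 7 in wildtype livers, against 17.8%. The comparisons share groups, so their counts are not separate evidence.

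**Figure D4:**
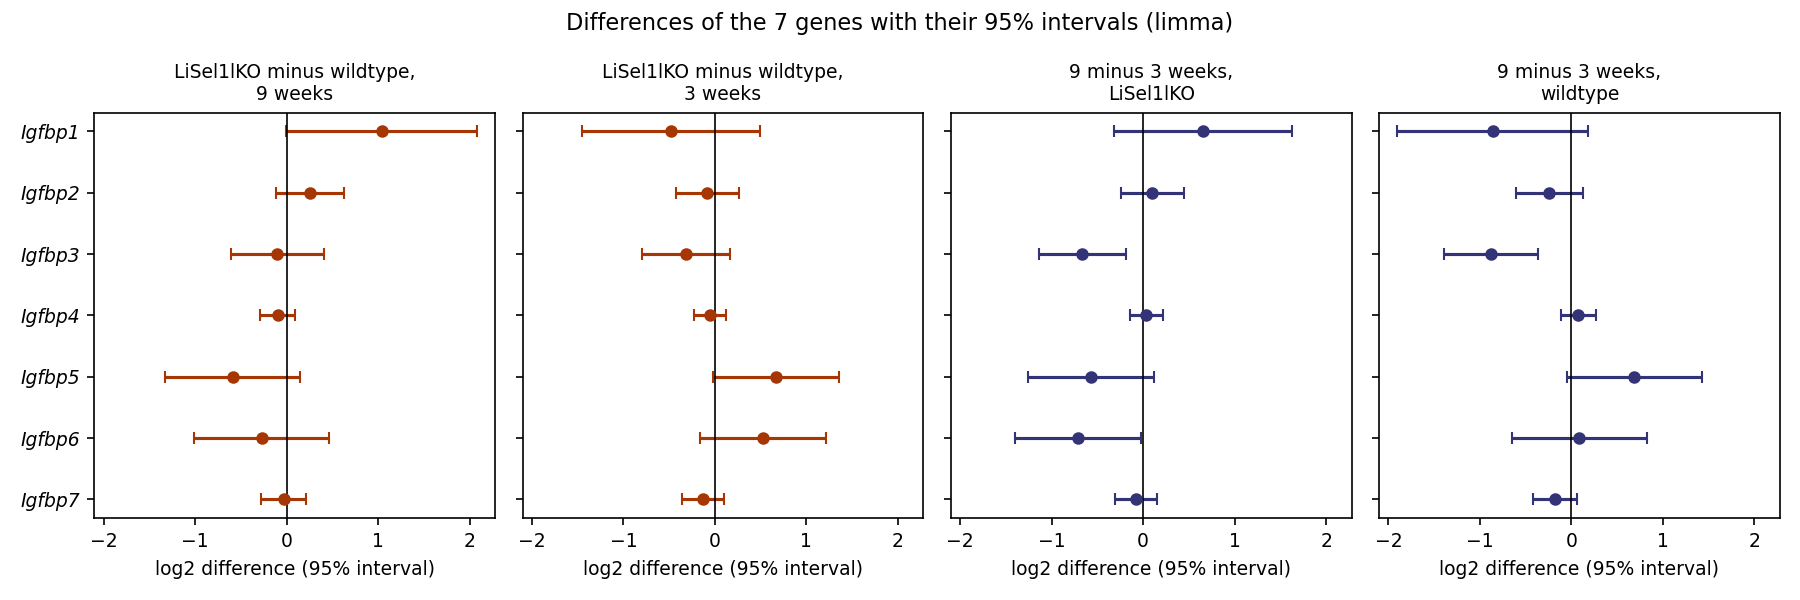
Log2 differences of Igfbp1 to Igfbp7 (horizontal axis, points) with 95% intervals from limma (bars), for LiSel1lKO minus wildtype livers at 9 and at 3 weeks and for 9 minus 3 weeks in LiSel1lKO and in wildtype livers. The Igfbp3 intervals lie below 0 in both age comparisons (-1.14 to -0.19 and -1.39 to -0.37), Igfbp1 has the widest intervals, and those of Igfbp4 and Igfbp7 are the narrowest.

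The partners of the binding proteins were read from 6 lists holding 45 measured genes of the IGF system and of insulin, fasting and stress signalling, the last including targets of those signals. At 9 weeks 1 of the 45 was called higher and 3 lower in LiSel1lKO than in wildtype livers, against 1.03% and 0.484% of all features. Of the 45 genes 14 lay above and 31 below 0, with a median of -0.10 against -0.01 over all features. At 3 weeks 0 of 45 were called, with 3 at an unadjusted p under 0.05, against 7.41% of all features. The 9-week count was 0 without wildtype replicate 2 or 3 or LiSel1lKO replicate 2 or 3 of that age, and 1 without wildtype replicate 1. In the same 5 fits the calls over all features were 80, 219, 30, 18 and 140, against 539 with all livers. The differences of the 4 genes kept their signs in all 13 fits without 1 liver, with ranges of -0.62 to -0.41 for Igf1, -0.94 to -0.67 for Ghr, -0.80 to -0.60 for Vegfa and 1.85 to 2.25 for Trib3. Of these 13 fits, limma called Igf1 in 8, Ghr in 9, Vegfa in 3 and Trib3 in 8. The highest adjusted p among them was 0.102, 0.0958, 0.169 and 0.117 (limma). With only the 2 compared groups in the fit none of the 4 was called (limma adjusted p = 0.211, 0.172, 0.183 and 0.135), and 1 feature was called in all.

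Among ligands and receptors, Igf1 fell to 9.62, 9.28 and 9.70 in LiSel1lKO livers at 9 weeks, against 10.07, 10.08 and 10.05 in wildtype livers (difference -0.53 ± 0.100, adjusted p = 0.0295, limma). Igf2 had a difference of -0.15 at levels of 3.38 and 3.53, within or below the array medians (adjusted p = 0.658). The insulin receptor gene Insr had one of -0.26 (adjusted p = 0.179). In the growth hormone and ternary complex list, the growth hormone receptor gene Ghr fell by 0.788 log2 units (adjusted p = 0.0196). Igfals, whose product completes the complex with Igfbp3, was at 7.76, 7.16 and 7.79 in LiSel1lKO livers and 7.98, 8.61 and 8.54 in wildtype livers. The groups did not overlap, but the difference of -0.81 ± 0.198 did not pass (adjusted p = 0.0725). Cish, a feedback inhibitor induced by growth hormone, had a difference of -1.38 (adjusted p = 0.227).

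No gene of the protease list was called at 9 weeks by limma, although 2 of 6 had an unadjusted p under 0.05, against 13.9% of all features. Of the 6, all but Plg lay below the highest array median on average, so their differences may be those of background. Plg, the plasminogen gene, had a difference of -0.19, Htra1, a secreted protease, one of -0.57, and Stc2, an inhibitor of Pappa proteases, one of -0.52 (adjusted p = 0.232, 0.322 and 0.360). The 12 genes with an IGFBP-type domain had 0 calls by limma and 3 with an unadjusted p under 0.05, against 13.9% of all features. These were Ccn5, with a difference of -0.35, Htra1 and Ccn3. Of the 12, 7 lay below the highest array median on average, Htra1 and Ccn3 among them. Ccn3 was at 2.17 to 2.54 in LiSel1lKO livers and 2.46 to 3.62 in wildtype livers, levels that may be background.

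Genes of signals that act on Igfbp1, and targets of the same signals, were split by kind. Of 8 genes of insulin action and fasting, 0 were called at 9 weeks and 0 had an unadjusted p under 0.05, against 1.52% and 13.9% of all features. Ppargc1a, a coactivator of the fasting response, had a difference of 0.63 (adjusted p = 0.455), Pck1, a gluconeogenic enzyme, one of -0.22 and Foxa2, a liver transcription factor, one of -0.38. Of 8 stress and FGF21 genes, 1 was called higher and 1 lower by limma, against 1.03% and 0.484% of all features. At an unadjusted p under 0.05, 6 were higher and 1 lower, against 13.9% of all features, with a median difference of 0.97. Groups did not overlap for 5 higher and 1 lower, against 18.4%. The pseudokinase gene Trib3 rose by 1.99 ± 0.355 (adjusted p = 0.0249) and Vegfa, the vascular growth factor gene, fell by 0.685 (adjusted p = 0.0400). Fgf21 had a difference of 2.96 (adjusted p = 0.0695) and Asns, an enzyme of amino acid synthesis, one of 1.50 (adjusted p = 0.0997).

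With age, 1 of the 45 was called higher and 1 lower in wildtype livers, against 0.765% and 1.12% of all features. Ghr was higher at 9 weeks by 0.81 (adjusted p = 0.0117) and Asns was lower by 2.39 log2 units (adjusted p = 0.0141). With only these 2 groups in the fit neither was called (adjusted p = 0.0510 and 0.100, limma). In LiSel1lKO livers 0 of 45 were called between the ages by limma, with 12 at an unadjusted p under 0.05, against 10.1% of all features. For the difference of the genotype effects 0 of 45 were called, with 9 at an unadjusted p under 0.05, against 9.73%.

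**Figure D5:**
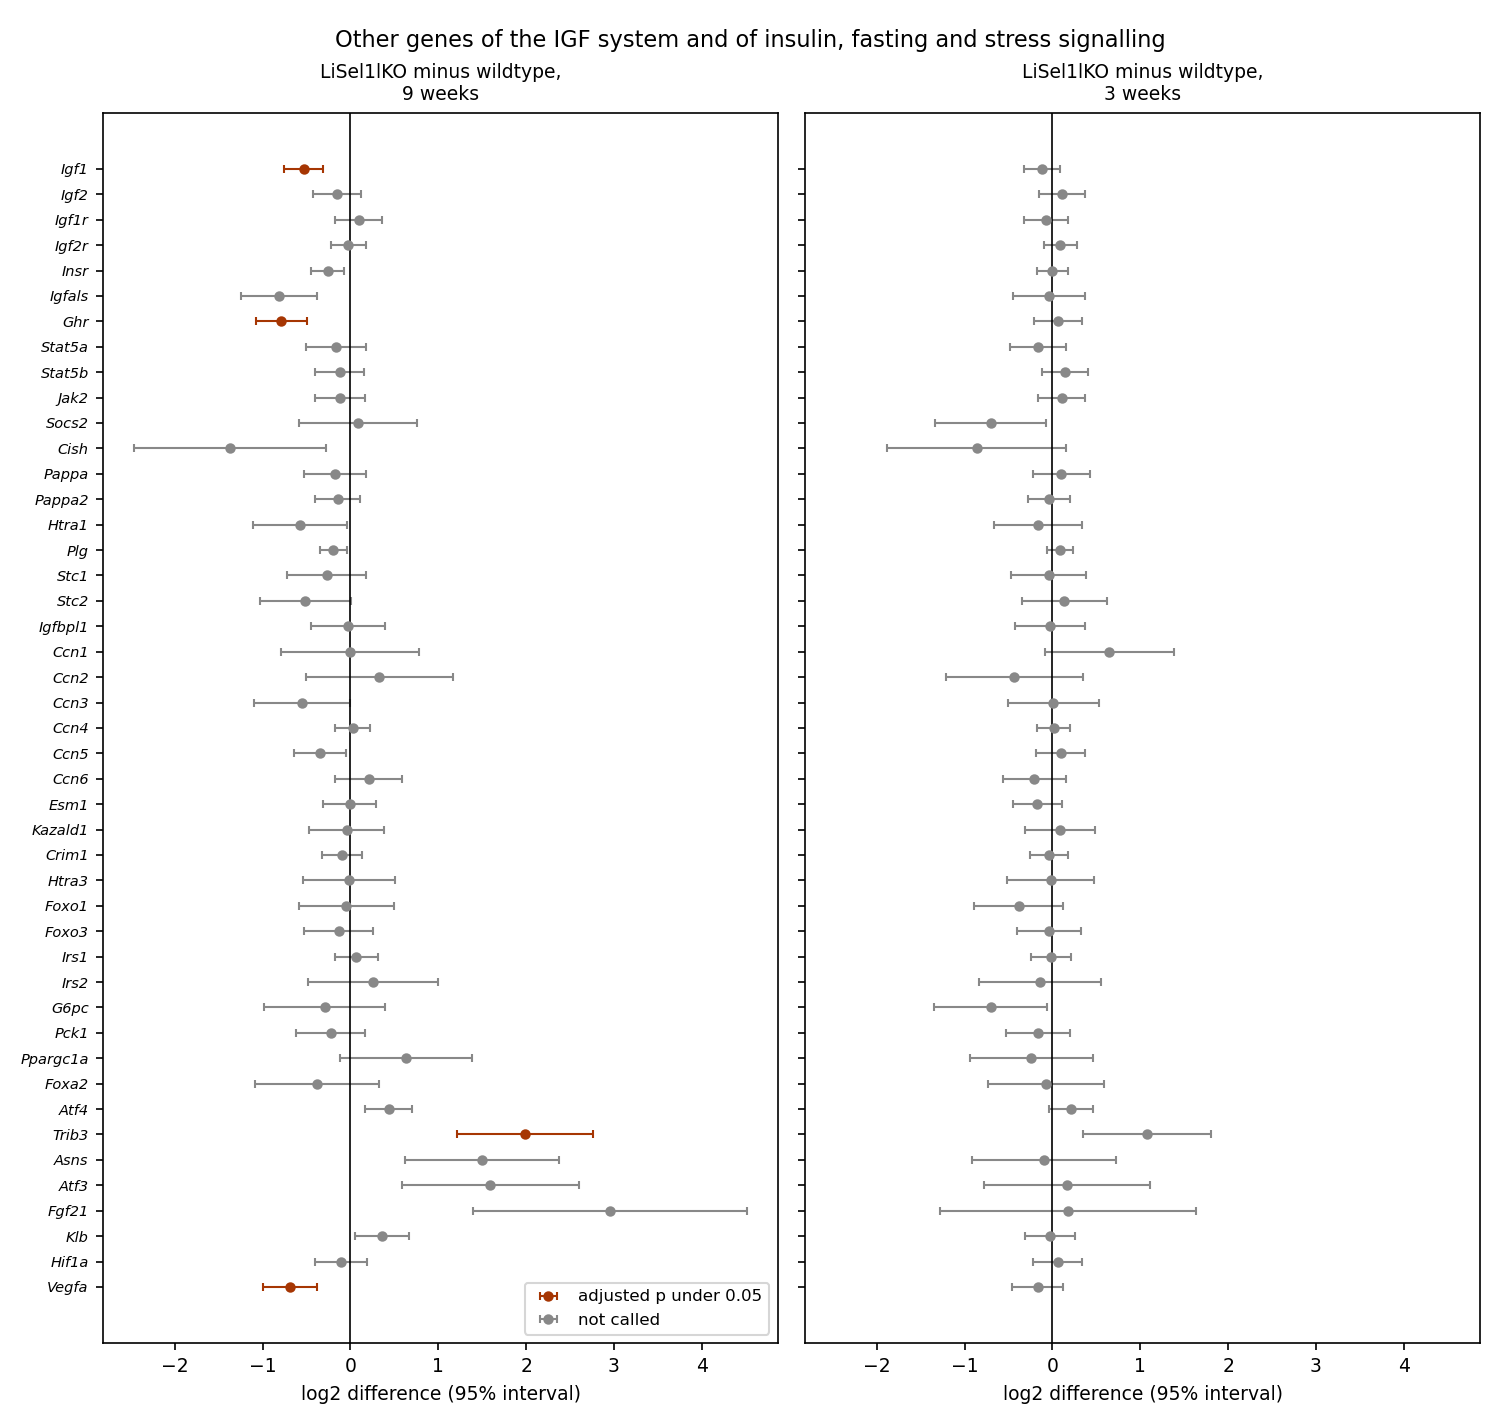
Log2 differences (horizontal axis) with 95% intervals for the other genes of the IGF system and of insulin, fasting and stress signalling, LiSel1lKO minus wildtype livers, at 9 weeks (left) and 3 weeks (right), with calls at an adjusted p under 0.05 in red. At 9 weeks Igf1 (-0.53), Ghr (-0.79), Vegfa (-0.68) and Trib3 (1.99) were called, and none was at 3 weeks.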

How the data were processed

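RNA from 13 livers was measured on Affymetrix whole-transcript arrays, 1 array per liver. The values are the authors' deposited log2 expression levels, which the submitters' processing notes credit to robust multi-array averaging (RMA). The sources used here give no version of it. RMA normalizes probe values across arrays, so a shift shared by most genes is largely removed. The array scans were not used here, and the number of arrays limits the precision.

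Of 35556 features, 21218 had 1 gene symbol in the platform annotation, 1881 had several and 12457 were unlisted. A gene was read from its 1-symbol feature of highest mean. Groups came from the sample titles. The labels describe separate mice and give no litter or hybridisation date.

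A single limma 3.58.1 model (R 4.3.3; lmFit on the 4 group means, then eBayes; two-sided) covered all livers and features. Benjamini-Hochberg adjustment ran over every feature, and a call needed an adjusted p below 0.05. The fit was tested on simulated data. The closing section gives the effect of other filters, scalings, priors, weights, batch terms and fits without single livers. All 7 members were named. From each list of other genes, those called in any comparison and up to 3 with the smallest p at 9 weeks between genotypes were named, with Igf1, Igf2, Igfals and Ghr always. Ddit3 and Nr1i3 had no 1-symbol feature. The genes most like a member were sought where its group means spanned at least 1 log2 unit. Members and lists were chosen with earlier results of these data known.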

Additional observations from a re-analysis of the deposited data

Results flagged for a closer look

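In LiSel1lKO livers at 3 weeks, 1 liver, replicate 3, stood apart in Igfbp5, at 5.89 against 5.22 to 5.29 in the other 3. Its gap to the nearest took 0.891 of the range of the group, above Dixon's 95% critical value for 4 samples. The same liver also had the highest Igfbp6 of its group, at 5.60. Without it, the Igfbp5 difference between genotypes at 3 weeks was 0.51, with an adjusted p of 0.932 (limma). Crim1, a membrane protein gene with an IGFBP-type domain, was at 6.67 in LiSel1lKO replicate 2 at 3 weeks, with a gap of 0.852 of the range. Among 52 genes examined there were 2 such values, and chance gives them in about 5% of groups.

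For Plg, which encodes plasminogen, a protease that can cut IGF-binding proteins, the genotype difference turned round with age. Every LiSel1lKO liver lay above every wildtype liver at 3 weeks (difference 0.09) and below every wildtype liver at 9 weeks (difference -0.19). The difference between these effects was -0.28 with an adjusted p of 0.397 (limma), which did not pass.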

How the results depend on the processing

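Apart from fits without single livers, 314 of 316 tested values kept their direction and side of the threshold, and 0 were reversed. The 2 exceptions were both Igfbp3 in wildtype livers, 9 against 3 weeks: its adjusted p was 0.0476 over features with 1 gene symbol alone, where fewer features were tested, and 0.0294 with the replicate block, so that 1 member of 7 was called in each instead of 0. Same-numbered livers did not deviate together (correlations of -0.011 to 0.071), so the numbers were taken as names of mice. With the replicate block, 0 of the 45 listed genes were called between genotypes at 9 weeks instead of 4, and likewise 0 with only the compared groups in the fit. Between ages in wildtype livers, the count was 4 instead of 2 over features with 1 symbol or with low features left out, and 0 with only the compared groups. With low features left out, 18748 features were tested, and the adjusted p of Igfbp3 with age in wildtype livers was 0.0551 (limma), not called. Some of these settings changed the number of features or samples in the fit, and the cause of the changed calls was not tested.

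Leaving out 1 liver gave 0 to 5 calls among the 45 between genotypes at 9 weeks, 1 to 3 with age in wildtype livers, 0 to 1 with age in LiSel1lKO livers and 0 to 1 for the difference of effects. It gave 0 to 1 member calls for age averaged over genotypes. Signs turned in 11 of 468 such fits, all uncalled and near 0: Igfbp2 with age in LiSel1lKO livers (-0.00316 to 0.153) and between genotypes at 3 weeks (-0.258 to 0.122), Igfbp3 between genotypes at 9 weeks (-0.302 to 0.0663), Igfbp4 with age in LiSel1lKO livers (-0.0235 to 0.0877) and for the difference of effects (-0.0994 to 0.0118), Igfbp6 with age in wildtype livers (-0.0825 to 0.270), and Igfbp7 between genotypes at 9 weeks (-0.133 to 0.0767) and for the difference of effects (-0.000892 to 0.209). Within a single plate column, where no test was run, 47 of 56 member differences lay closer to the whole-fit value than the SD among livers of a group. With a mean over all features of a gene there was nothing to compute, as each member has 1.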
